A study of Mus musculus with 46 samples.

Results

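The genes described here make, sense and move cholesterol in the mouse intestine. They are 28 listed symbols, found by name among the 45777 gene symbols of each of the 5 deposited count tables, and all 28 were present and passed the filter on low counts in every table. Of the 28, 18 encode enzymes of cholesterol synthesis and 6 take part in uptake, efflux or esterification. The other 4 are grouped here as sensing genes. They are Srebf2, Insig1 and Scap of the sterol-sensing machinery, and Stard4, a sterol carrier. All animals were male C57BL/6J mice, and each of the 15 groups held 3 libraries of bulk RNA from intestinal tissue. In the acute experiment, colon was taken 6 h after 1 oral dose of 600 mg/kg metformin or imeglimin, beside controls whose vehicle the labels do not describe. In the chronic experiment, mice drank water with 3 mg/mL of either drug, or control water, for 4 weeks, and colon and 3 stretches of small intestine (proximal, middle, distal) were taken. Both drugs lower blood glucose in diabetes; metformin is a biguanide and imeglimin a tetrahydrotriazine related to it, so the comparisons ask where in the gut, and after which exposure, each drug goes with a change in these genes. The labels give no age, and nothing in them says whether each replicate is another mouse or whether the 4 chronic segments share mice. A p-value here therefore reflects variation among these libraries, which may be technical.

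Cells build cholesterol from acetyl units through mevalonate, isoprenoids, squalene and lanosterol. When membrane cholesterol in the endoplasmic reticulum falls, the escort protein Scap carries the transcription factor SREBP2, the product of Srebf2, to the Golgi for cleavage, and the freed fragment raises the genes of the synthesis pathway, while Insig1 holds Scap back when sterols are plentiful. Oxysterols, made when cholesterol is abundant, activate the liver X receptors, which raise the exporters Abca1, Abcg5 and Abcg8 and the ubiquitin ligase Mylip. In the small intestine, Npc1l1 takes dietary cholesterol into enterocytes, Abcg5 and Abcg8 together return sterols to the lumen, and Soat2 esterifies cholesterol for export in lipoproteins.

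Since many of these genes moved together in colon, the stretches ahead of their start sites are shown for 5 that rose in chronic colon with imeglimin. All 5 were chosen after their values were seen, as the members with a promoter whose rise had the smallest adjusted p. Among them only Hmgcs1 held an exact match to the sterol response element letters given below. Other forms of the element were not searched. Sequences are from RefSeq, build GRCm38.p6, are 100 bases long, read 5′ to 3′ along the gene, and lie within the 250 bases before the start site. Capitals mark a sterol response element with the letters TCACNCCAC, the motif bound by SREBP2, or a CCAAT box, the motif bound by NF-Y, each searched on both strands.
Hmgcs1: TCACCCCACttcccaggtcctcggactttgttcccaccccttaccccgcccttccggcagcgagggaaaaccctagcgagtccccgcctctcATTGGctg
Msmo1: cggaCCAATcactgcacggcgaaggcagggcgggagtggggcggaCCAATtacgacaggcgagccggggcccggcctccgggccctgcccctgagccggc
Lss: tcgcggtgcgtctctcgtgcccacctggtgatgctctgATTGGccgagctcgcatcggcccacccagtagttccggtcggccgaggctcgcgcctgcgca
Mvd: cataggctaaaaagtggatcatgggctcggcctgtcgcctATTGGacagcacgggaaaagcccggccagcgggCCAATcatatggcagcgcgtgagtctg
Insig1: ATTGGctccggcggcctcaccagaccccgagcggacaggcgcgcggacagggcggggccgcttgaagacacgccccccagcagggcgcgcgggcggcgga
The Hmgcs1 stretch lies at chr13:119690214-119690313, plus strand, and opens with the sterol response element in its capitals. Msmo1 is at chr8:64733579-64733678, minus strand, and carries 2 CCAAT boxes, as does Mvd at chr8:122443423-122443522, minus strand. Lss at chr10:76531505-76531604, plus strand, and Insig1 at chr5:28071196-28071295, plus strand, carry 1 each.

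Promoters were available for 23 of the 28 members, and none for Fdps, Fdft1, Sqle, Stard4 and Soat2. An exact match to the sterol response element letters was found in 1 of the 23 (Hmgcs1), or 4.348%. Over the same window, 1.226% of the 26994 genes in the table held one. A CCAAT box was present in 19 of 23 members (82.61%), against 37.47% of all genes, and the Sp1 box GGGCGG also in 19 of 23 (82.61%), against 35.33%. The 26994 genes were not limited to those expressed in these tissues, whereas all members passed the filter on low counts. The shares therefore come from unlike sets. None of the 74 matches in members overlapped another (0 pairs). Overlap between motifs was counted over both strands. Neither box was found ahead of Abcg5. A match describes letters in a window and is not evidence of binding, and a missing match is not evidence that binding is absent.

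The tissue labels were checked against defining markers. In the chronic tables Aqp8, a colonocyte water channel, had a median of 435 CPM in colon and 0 in each small intestinal segment, and Fabp6, the ileal bile acid carrier, had 3643 CPM in distal, 54.5 in middle and 0.201 in proximal small intestine. Lct, lactase, had 3291 CPM in the proximal, 1465 in the middle and 0.959 in the distal segment, whereas the proximal markers Slc40a1 (6.67 CPM in proximal small intestine, 207 in colon) and Cybrd1 (1.85 in proximal small intestine) did not mark the proximal segment. Acute colon differed from chronic colon in such markers: in controls the 2 distal markers summed to 633, 361 and 306 CPM in acute and 5.57, 8.54 and 12.1 in chronic colon. The 7 enterocyte markers summed to 461, 514 and 562 CPM against 49.98, 111 and 61.4, and the 5 colonocyte markers to 10987, 12056 and 9919 CPM against 3622, 3598 and 3839. Libraries held 31606797 to 47324301 counts. At least 2 libraries stood apart. Distal control 1 differed most from its replicates (chi-square per gene of 158.3 and 177.5), with a Paneth marker sum of 17660.4 CPM against 6837 and 5432. Chronic colon control 3 (137.2 and 113.6 against its replicates) carried pancreatic acinar transcripts summing to 19693 CPM, against at most 1.47 CPM in the other libraries of that table. Counts in chronic colon and in the untreated distal segment are also given without these libraries. Levels below are read counts relative to library size (CPM) after TMM scaling of library sizes, fold changes are log2 values ± SE, and each edgeR adjusted p is a Benjamini-Hochberg value over all genes tested. Genes were called at an adjusted p under 0.05. CPM is not divided by gene length, so levels are compared between samples and never between genes. Between segments, CPM comes from the joint fit of the 4 chronic tables, so the same control libraries have other CPM values there than within their own table. Unless DESeq2 is named, called and not called refer to edgeR. Where libraries of a group are said to lie apart from those of another, the share of all genes doing so was not counted.

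Without drug, most synthesis enzymes were highest in distal small intestine, while Npc1l1, Abcg5, Abcg8 and Soat2 were highest in the proximal and middle segments and lowest in colon. Between middle and distal small intestine, 16 of 18 synthesis enzymes rose, with a median log2 difference of 1.13 against 0.04 over all genes. Of all 28 members, 18 were higher and 3 lower in distal than in middle small intestine by edgeR, where 3.32% and 6.65% of all genes were called higher and lower. In the neighbouring steps, 7 members rose and 0 fell from proximal to middle (background 2.33% and 4.37%), and 3 rose and 22 fell from distal small intestine to colon (background 21.4% and 23.6%). The numbers called from proximal to middle dropped to 1 without replicate 2 of every group and to 2 without replicate 1. Without replicate 1, distal control 1 included, 20 members were called from middle to distal and 24 from distal to colon. The 28 proliferation markers were also lowest in colon and, with middle and distal libraries overlapping, higher in distal than in proximal small intestine. They summed to 642, 561 and 552 CPM in proximal, 923, 771 and 621 in middle and 1129, 867 and 859 in distal controls and 302, 474 and 294 in colon, each on the scale of its own table. Of these 28, 0 were called at either small intestinal step by edgeR and 27 were lower in colon than in distal small intestine; their part in the gradient was not tested. Segments came from separately counted tables, so a difference between tables cannot be told apart from one between segments.

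Sqle, squalene epoxidase, which makes the first oxygenated sterol precursor, stood at 17.3, 14.2 and 18.6 CPM in the proximal, 54.5, 47.5 and 32.8 in the middle and 154, 212 and 144 in the distal segment and 29.5, 41.4 and 28.7 in colon. Every distal library lay above every library of the other 3 segments. The log2 difference was 1.43 ± 0.22 from proximal to middle (edgeR adjusted p = 9.4e-05), 1.92 ± 0.22 from middle to distal (adjusted p = 3.63e-07) and -2.36 ± 0.22 from distal small intestine to colon (adjusted p = 9.32e-10). Hmgcs1, the cytosolic HMG-CoA synthase, measured 107, 96.9 and 103 CPM in the proximal, 182, 164 and 139.9 in the middle and 465, 653 and 493 in the distal segment and 99.3, 139 and 117 in colon. It too peaked in the distal segment, 1.73 ± 0.18 above middle small intestine (adjusted p = 7.39e-08). Fdft1, squalene synthase, followed the same order up to the distal segment, 1.81 ± 0.17 above the middle one (adjusted p = 9.79e-09), and Cyp51, lanosterol demethylase, rose by 1.77 ± 0.22 there (adjusted p = 1.04e-06).

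A few late enzymes did not follow the whole of this gradient. Ebp, the sterol isomerase, measured 55.4, 53.3 and 55.99 CPM in the proximal, 48.3, 45.97 and 57.01 in the middle and 57.2, 56.2 and 51.97 in the distal segment and 55.8, 53.2 and 48.2 in colon, and none of the 3 steps was called for it (adjusted p from 0.53 to 0.587). Sc5d, a sterol desaturase, was not called between middle and distal small intestine (-0.19 ± 0.13, adjusted p = 0.428) and was lower in colon (-0.99 ± 0.13, adjusted p = 2.08e-07). Dhcr7, the reductase of the last step, did rise from middle to distal small intestine (0.37 ± 0.10, edgeR adjusted p = 0.00978). It was higher still in colon than in distal small intestine, by 0.27 ± 0.10 (adjusted p = 0.0224, 0.104 without replicate 2 or without replicate 3). Its levels were 54.6, 52.3 and 56.01 CPM in colon against 43.5, 43.97 and 47.6. Among sensing genes, Srebf2 measured 87.1, 84.4 and 98.9 CPM in the proximal, 161, 128 and 120.1 in the middle and 204, 252 and 245 in the distal segment and 134, 152 and 133 in colon, with no overlap between middle and distal libraries. Insig1 was lowest in middle small intestine, at 32.6, 25.9 and 24.6 CPM, and higher in distal, at 63.5, 70.8 and 53.9 CPM (1.18 ± 0.19, adjusted p = 8.22e-05). Colon, at 69.1, 67.3 and 71.3 CPM, was not called against distal small intestine for Insig1 (0.14 ± 0.19, adjusted p = 0.578).

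Most uptake and efflux genes ran the other way. Npc1l1, the cholesterol importer of the brush border, measured 1253, 1297 and 1487 CPM in the proximal, 1052, 1241 and 1588 in the middle and 242, 723 and 716 in the distal segment and 0.113, 0.0947 and 0.112 in colon. Distal control 1 lay far below the other distal libraries, and its summed level of 7 enterocyte markers was also low, at 2668 CPM against 7298 and 8520; its part in the result was not tested. Npc1l1 fell from middle to distal small intestine (-1.21 ± 0.30, edgeR adjusted p = 0.0064), a call lost without replicate 1 (0.0671) or replicate 3 (0.0587). From distal small intestine to colon Npc1l1 fell by 12.31 ± 0.52 on the log2 scale (edgeR adjusted p = 4.68e-17), and the colon values rest on 6, 4 and 6 reads. Soat2, the enterocyte esterification enzyme, went from 323, 318 and 328 CPM in proximal and 247, 265 and 288 in middle to 77.6, 128 and 91.7 in distal small intestine and 0.714, 0.947 and 0.689 in colon. Both steps after the middle segment were called, at -1.43 ± 0.19 (adjusted p = 3.15e-06) and -6.99 ± 0.26 (adjusted p = 2.29e-18).

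The sterol exporters Abcg5 and Abcg8 showed wide spreads in the distal segments. Abcg5 measured 359, 382 and 382 CPM in the proximal, 254, 281 and 354 in the middle and 97.2, 169.7 and 187 in the distal segment and 8.09, 1.85 and 5.61 in colon, and only the last of its 3 steps was called (-4.85 ± 0.52, adjusted p = 9.98e-09). Abcg8 measured 295, 252 and 295 CPM in the proximal, 191, 188 and 227 in the middle and 70.5, 133 and 148 in the distal segment and 4.28, 1.07 and 2.51 in colon, likewise called only into colon (-5.46 ± 0.51, adjusted p = 6.56e-10). Abca1, which loads cholesterol on to apolipoprotein particles, dropped earlier, between middle and distal small intestine, with 168, 186 and 176 CPM in the proximal, 129.6, 132 and 181 in the middle and 28.7, 26.6 and 49.1 in the distal segment and 33.3, 25.9 and 30.4 in colon. That step was -2.08 ± 0.28 (adjusted p = 3.82e-06), while the step into colon was -0.22 ± 0.27 (adjusted p = 0.543). Mylip, which marks lipoprotein receptors for degradation, was instead higher in colon than in distal small intestine (0.76 ± 0.25, adjusted p = 0.0148, lost without replicate 1 at 0.186 or replicate 2 at 0.0823).

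**Figure D1:**
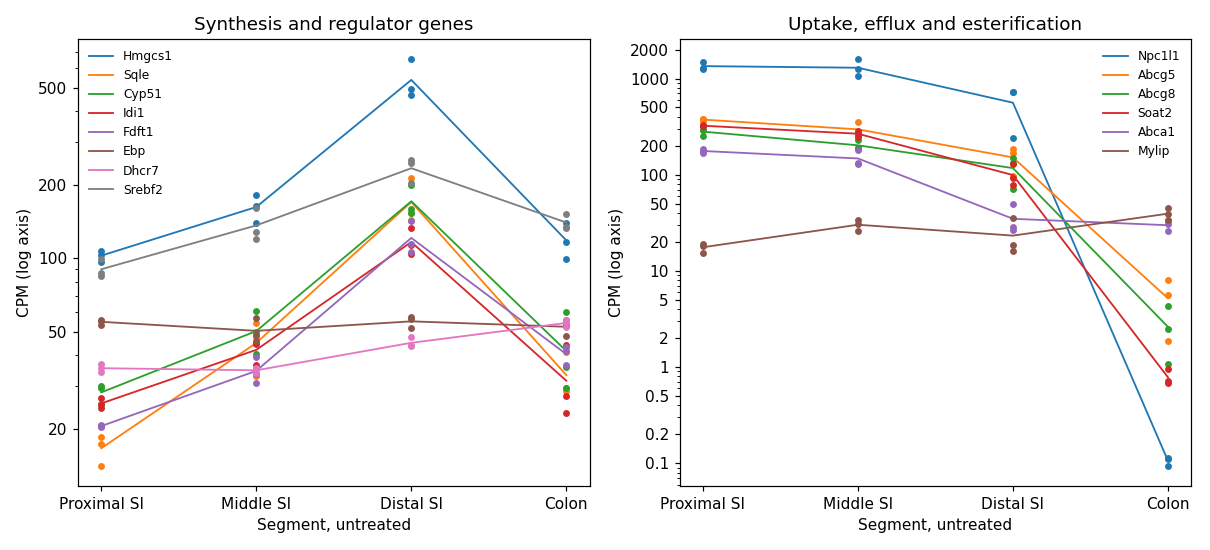
Levels of 8 synthesis and sensing genes (left) and 6 uptake, efflux and esterification genes (right) in untreated mice, in CPM on a log axis, by gut segment (SI, small intestine). Points are the 3 control libraries of a segment and lines join their means; Hmgcs1, Sqle, Cyp51, Idi1 and Fdft1 peak in distal small intestine, and Npc1l1 lies near 0.1 CPM in colon.

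At 6 h after a single dose, Abca1, Mylip and Stard4 were lower in colon with either drug, and 6 synthesis enzymes were higher with metformin. With metformin, 7 members were higher and 3 lower by edgeR, against 11.3% and 8.37% of all genes called higher and lower (19.7% in all). With imeglimin, 2 were higher and 6 lower, against 18.1% and 15.1% of all genes (33.3% in all). Members were thus called with imeglimin no more often than genes in general. The median log2 fold change over the 28 was 0.24 with metformin and -0.04 with imeglimin, and over all genes -0.04 and -0.03. Both drugs were compared with the same 3 controls. Other marker sums moved alongside. The 2 distal markers summed to 633, 361 and 306 CPM in controls, 132, 279.9 and 136 with metformin and 229.5, 215 and 279.9 with imeglimin, and the 4 proximal markers to 366, 301 and 247 CPM in controls, 79.98, 123 and 83.2 with metformin and 77.8, 69.9 and 86.7 with imeglimin, with every treated library below every control in both. Of those tested, 1 of 2 distal and 1 of 3 proximal markers were lower with metformin, and 0 and 1 with imeglimin. Among the 4 listed proximal markers, Slc40a1 had a median of 207 CPM in chronic colon, against 2.03 for Cybrd1, 0.157 for Gata4 and 0.216 for Lct. Slc40a1 did not mark the proximal segment in the chronic experiment, and what the sum of these 4 reflects in acute colon was not tested. Fibroblast markers summed to 1394, 1563 and 1709 CPM in controls, 1543, 876 and 1524 with metformin and 1362, 1127 and 1194 with imeglimin (2 of 12 lower with imeglimin), and goblet markers to 19943, 19113 and 20830.2 CPM in controls, 25726, 23713 and 19731 with metformin and 23123, 25293 and 25048 with imeglimin (1 of 8 higher with metformin and 2 with imeglimin). Every imeglimin library was below the controls for the fibroblast sum and above them for the goblet sum, and the part of these cells in the results was not tested. In bulk tissue fewer cells of a type and less RNA per cell cannot be told apart.

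The liver X receptor targets Mylip and Abca1 were lower with both drugs. Mylip measured 33.3, 32.5 and 38.2 CPM in controls, 19.8, 16.7 and 16.2 with metformin and 17.6, 16.4 and 15.9 with imeglimin. All 6 treated libraries lay below all 3 controls, and the log2 fold change was -0.98 ± 0.11 with metformin (edgeR adjusted p = 0.000281) and -1.06 ± 0.11 with imeglimin (adjusted p = 9.67e-05). Abca1 measured 24.4, 20.2 and 26.8 CPM in controls, 10.8, 13.1 and 14.1 with metformin and 13.6, 9.75 and 9.27 with imeglimin. Again no treated library reached the controls, with -0.91 ± 0.17 for metformin (adjusted p = 0.00424) and -1.13 ± 0.17 for imeglimin (adjusted p = 0.000764). These falls, and that of Stard4, stayed called for both drugs without any 1 library.

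The heterodimer partners Abcg5 and Abcg8 were low in colon and fell with imeglimin. Abcg5 measured 6.67, 4.39 and 5.10 CPM in controls, 3.76, 5.47 and 3.77 with metformin and 3.18, 1.99 and 3.30 with imeglimin. The imeglimin libraries lay below every control, at -0.93 ± 0.25 (edgeR adjusted p = 0.0159), while metformin overlapped the controls (-0.32 ± 0.25, adjusted p = 0.395). Abcg8 measured 5.47, 4.96 and 5.20 CPM in controls, 2.18, 4.34 and 1.26 with metformin and 2.54, 0.978 and 2.37 with imeglimin. Controls sat closely together above all treated libraries, and the fold change was -1.40 ± 0.42 with imeglimin (adjusted p = 0.0255) and -1.01 ± 0.42 with metformin (adjusted p = 0.111). The imeglimin call for Abcg8 was lost without any 1 of 5 libraries (adjusted p up to 0.0924), and that for Abcg5 without control 1 (0.0627) or imeglimin 2 (0.0651). Leaving out metformin 2, whose smooth muscle markers summed to 2256 CPM against 8656 and 5483 in the other metformin libraries, made Abcg8 pass with metformin too, at -1.60 (adjusted p = 0.0136). The part of smooth muscle in that value was not tested.

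Of 2 genes of absorptive cells, Soat2 rose with both drugs and Npc1l1 was not called. Soat2 measured 1.80, 1.74 and 1.93 CPM in controls, 3.68, 3.52 and 3.05 with metformin and 2.24, 4.07 and 2.92 with imeglimin. Each treated library exceeded each control, by 0.90 ± 0.24 with metformin (edgeR adjusted p = 0.0212, lost without any 1 of 4 libraries) and 0.75 ± 0.24 with imeglimin (adjusted p = 0.0307, 0.0544 with the replicate block, and lost without any 1 of 5 libraries). Npc1l1 measured 3.62, 2.08 and 2.05 CPM in controls, 1.89, 3.16 and 1.91 with metformin and 3.45, 3.09 and 2.18 with imeglimin, and neither drug was called (-0.15 ± 0.31 and 0.17 ± 0.30, adjusted p = 0.755 and 0.705).

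Sensing genes moved in different directions at 6 h. Stard4, a carrier of cholesterol between membranes, measured 254, 229.8 and 239 CPM in controls, 164, 179 and 186 with metformin and 156, 138 and 136 with imeglimin. Treated libraries lay below all controls, at -0.45 ± 0.09 with metformin (edgeR adjusted p = 0.00664) and -0.75 ± 0.09 with imeglimin (adjusted p = 0.000236). Insig1, which retains Scap in the endoplasmic reticulum, measured 163, 131 and 127 CPM in controls, 188, 155 and 128 with metformin and 98.3, 110.3 and 75.1 with imeglimin. The imeglimin libraries were below every control (-0.57 ± 0.17, adjusted p = 0.0242, lost without control 1 at 0.0915 or imeglimin 3 at 0.0997), while the metformin libraries overlapped the controls (0.16 ± 0.17, adjusted p = 0.521). Srebf2 measured 242, 273 and 254 CPM in controls, 313, 319 and 276 with metformin and 302, 316 and 311 with imeglimin. It was called with imeglimin (0.27 ± 0.09, adjusted p = 0.0372, 0.0585 with the replicate block, and lost without control 1, control 3, imeglimin 2 or imeglimin 3) and not with metformin (0.24 ± 0.09, adjusted p = 0.0837). DESeq2 called Srebf2 with metformin too (0.24, adjusted p = 0.0262). Scap, the escort of SREBP2, was not called with either drug (0.03 ± 0.09 and -0.07 ± 0.09).

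Of the 18 synthesis enzymes, 6 rose and 0 fell with metformin, with a median log2 fold change of 0.41, and 17 of 18 were above 0. Cyp51, with the smallest adjusted p, measured 162, 148 and 137 CPM in controls, 245, 180.1 and 214 with metformin and 150.1, 167 and 138 with imeglimin. The metformin libraries lay above all controls at 0.52 ± 0.12 (edgeR adjusted p = 0.0146), and the call was lost without control 3 (0.0641). The others were Idi1, the isopentenyl isomerase (0.56 ± 0.14, adjusted p = 0.0192), Msmo1, the methylsterol oxidase (0.59 ± 0.15, adjusted p = 0.0198), Sqle (0.45 ± 0.12, adjusted p = 0.0247), Lss, lanosterol synthase (0.50 ± 0.14, adjusted p = 0.0252), and Hsd17b7, a sterol ketoreductase (0.46 ± 0.13, adjusted p = 0.035). Without control 3 all 6 of these calls were lost, and without metformin 2, Mvd, Fdps, Nsdhl and Acat2 were added. DESeq2 also called Hmgcs1, Mvd, Fdps and Nsdhl higher with metformin (adjusted p = 0.0206, 0.0349, 0.0124 and 0.0256).

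With imeglimin at 6 h, 0 of 18 synthesis enzymes were called by edgeR or by DESeq2, with a median of -0.02 and a range from -0.22 to 0.25. Hmgcs1 shows the pattern, at 397, 285 and 276 CPM in controls, 481, 413 and 388 with metformin and 314, 332 and 282 with imeglimin. Control 1 reached into the range of the metformin libraries, and metformin was not called (0.42 ± 0.14, edgeR adjusted p = 0.0627, and 0.0110 without control 1), nor was imeglimin (-0.05 ± 0.14, 95% interval -0.36 to 0.27, adjusted p = 0.836). Summed over the 18 enzymes, the level was 1727, 1548 and 1445 CPM in controls, 2433, 1819.6 and 1939 with metformin and 1611, 1687 and 1415 with imeglimin. Metformin 1 was highest of all 9, and the sums of the metformin libraries lay above those of the controls and of the imeglimin libraries. The 28 proliferation markers, listed because dividing cells make membranes, had 10 higher with metformin, and 10 higher and 2 lower with imeglimin, in the same table; their part in these results was not tested.

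Direct comparison of imeglimin with metformin at the same oral dose by weight gave 0 of 28 members called by edgeR (14 at an unadjusted p under 0.05, and 7 lower with imeglimin by DESeq2), where 0.645% of all genes were called (0.476% higher and 0.169% lower). Of the 18 synthesis enzymes 17 were lower with imeglimin than with metformin, with a median of -0.38. Insig1 was -0.73 ± 0.17 (95% interval -1.10 to -0.36, edgeR adjusted p = 0.0856), Idi1 -0.59 ± 0.14 (-0.90 to -0.27, adjusted p = 0.0981) and Cyp51 -0.49 ± 0.12 (-0.76 to -0.22, adjusted p = 0.108). For those 3 genes, picked for their small p, the imeglimin libraries all lay below the metformin libraries. How many of all genes separate in this way was not counted. The difference for Mylip was -0.08 ± 0.11, with an interval of -0.32 to 0.16 (adjusted p = 0.753), and for Abca1 -0.22 ± 0.17, with an interval of -0.60 to 0.16 (adjusted p = 0.551), so differences within those limits cannot be told from none. Without metformin 2, Idi1 and Cyp51 passed (adjusted p = 0.0328 and 0.0470).

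After 4 weeks, synthesis enzymes were higher in colon with imeglimin, a smaller set was higher with metformin, and Abca1 and Mylip were again lower with either drug. With imeglimin 16 members were higher and 2 lower by edgeR (median 0.82, against -0.02 over all genes), where 7.97% and 5.07% of all genes were called higher and lower. With metformin 7 were higher and 2 lower (median 0.39, against -0.05), where 11.6% and 8.04% of all genes were (19.7% in all). Without control 3, the library with pancreatic transcripts, 7 members remained called with imeglimin and 6 with metformin. The medians were then 0.74 and 0.29. Leaving out a library also lowers the number of samples, and the imeglimin count ran from 7 to 19 over the 6 libraries.

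Of the 18 synthesis enzymes, 13 rose with imeglimin, all 18 were above 0, and the median was 0.84. Hmgcs1 measured 121, 169 and 143 CPM in controls, 216, 203 and 171 with metformin and 245, 441 and 387 with imeglimin. Every imeglimin library exceeded every control and every metformin library, with 1.31 ± 0.20 for imeglimin (edgeR adjusted p = 0.00534) and 0.45 ± 0.20 for metformin (adjusted p = 0.145). Msmo1 measured 52.5, 76.01 and 67.6 CPM in controls, 103, 97.8 and 81.7 with metformin and 101, 139 and 124 with imeglimin. Both drugs passed for it, at 0.89 ± 0.16 with imeglimin (adjusted p = 0.00765) and 0.53 ± 0.16 with metformin (adjusted p = 0.0395, lost without any 1 of 4 libraries, control 3 among them). Lss measured 15.6, 25.1 and 18.2 CPM in controls, 30.9, 34.4 and 23.8 with metformin and 31.1, 52.9 and 54.4 with imeglimin. Control 2 lay within the metformin range but under the imeglimin range, and edgeR called Lss with imeglimin (1.24 ± 0.24, adjusted p = 0.0109) but not with metformin, where DESeq2 did (0.61, adjusted p = 0.0301).

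The rise with imeglimin spanned the pathway. In the isoprenoid part, Mvd, the mevalonate diphosphate decarboxylase, rose by 0.91 ± 0.18 (edgeR adjusted p = 0.0126) and Fdps, farnesyl diphosphate synthase, by 1.06 ± 0.23 (adjusted p = 0.0162). In the squalene part, Fdft1 rose by 0.91 ± 0.17 (adjusted p = 0.0105) and Sqle by 1.01 ± 0.19 (adjusted p = 0.0105). Among sterol-modifying enzymes Hsd17b7 rose by 0.73 ± 0.16 (adjusted p = 0.0169). The other 5 called were Idi1, Ebp, Acat2, Cyp51 and Tm7sf2, and the 5 not called by edgeR were Mvk (0.57), Pmvk (0.21), Nsdhl (0.42), Sc5d (0.33) and Dhcr7 (0.28), of which DESeq2 called Mvk, Nsdhl, Sc5d and Dhcr7 (adjusted p = 0.0256, 0.0212, 0.0185 and 0.0190). Hmgcs1, Msmo1, Fdft1, Sqle and Lss stayed called without any 1 library. The other 8 calls were each lost without control 3 (adjusted p from 0.0527 to 0.143), and all of them but that of Ebp also without control 1. Control 2 was the highest control in this group of genes, with a summed level of 867.5 CPM against 656.8 and 717.8, and without it Mvk and Nsdhl passed as well.

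With metformin, 3 of 18 synthesis enzymes rose after 4 weeks, with a median of 0.39. Without control 2, Idi1, Fdps and Tm7sf2 passed as well. Ebp measured 68.00, 64.9 and 58.9 CPM in controls, 104, 106 and 97.2 with metformin and 80.3, 76.5 and 88.4 with imeglimin. Its metformin libraries lay above all imeglimin libraries, which lay above all controls, with 0.68 ± 0.08 for metformin (edgeR adjusted p = 0.000667) and 0.35 ± 0.08 for imeglimin (adjusted p = 0.0213). The call with metformin held without any 1 library, whereas that with imeglimin was lost without control 3 (0.0817) or imeglimin 3 (0.0603). Sc5d rose by 0.39 ± 0.10 with metformin (adjusted p = 0.0274, lost without control 1, control 2 or metformin 3), and Msmo1 was the remaining one. Hsd17b7, called with imeglimin, was -0.01 ± 0.16 with metformin (95% interval -0.36 to 0.34, adjusted p = 0.973).

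**Figure D2:**
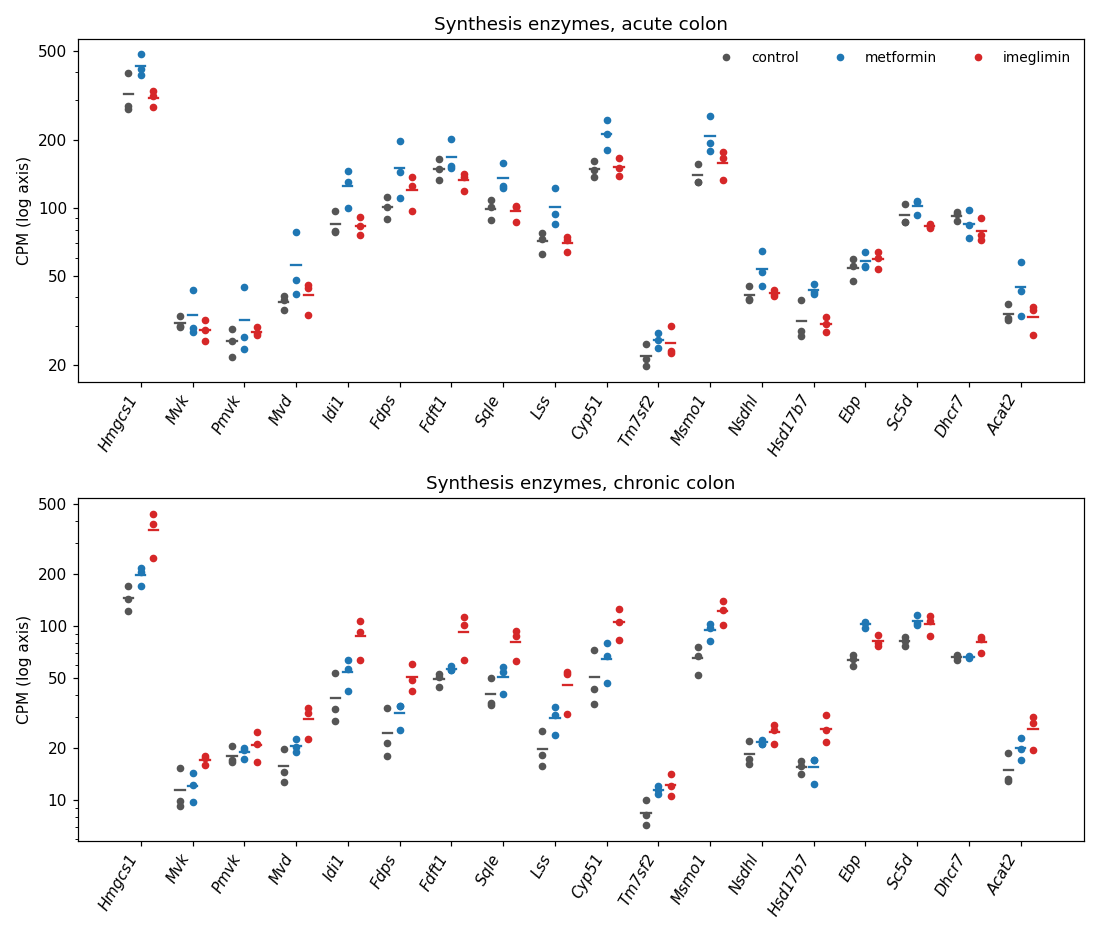
Levels of the 18 synthesis enzymes in acute (top) and chronic colon (bottom), in CPM on a log axis. Points are the 3 libraries of each group (grey control, blue metformin, red imeglimin) and dashes their means; metformin is highest for most enzymes at 6 h and imeglimin for most after 4 weeks.

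Of the 4 sensing genes, 2 rose with each drug after 4 weeks. Insig1 measured 84.2, 82.1 and 87.2 CPM in controls, 178, 164 and 251 with metformin and 115, 210.3 and 183 with imeglimin. All treated libraries lay above the 3 closely grouped controls, with 1.23 ± 0.21 for metformin (edgeR adjusted p = 0.00399, held without any 1 library) and 1.00 ± 0.21 for imeglimin (adjusted p = 0.0155, 0.0527 without control 1 and 0.0531 without control 3). Stard4 measured 133, 190.5 and 157 CPM in controls, 201, 187 and 191 with metformin and 232, 279.7 and 205 with imeglimin. It rose with imeglimin (0.58 ± 0.14, adjusted p = 0.0261, lost without any 1 of 4 libraries) and overlapped the controls with metformin (0.27 ± 0.14, adjusted p = 0.196). Scap rose with metformin by 0.21 ± 0.06 (adjusted p = 0.033, 0.0594 with the replicate block, and lost without any 1 of 5 libraries) and stood at 0.01 ± 0.06 with imeglimin. Srebf2 measured 164, 186 and 163 CPM in controls, 169.8, 154 and 135 with metformin and 174, 189.8 and 166 with imeglimin, with overlapping groups and no call (-0.16 ± 0.10 and 0.05 ± 0.10, adjusted p = 0.276 and 0.804).

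Among uptake and efflux genes, Abca1 measured 40.6, 31.6 and 37.2 CPM in controls, 19.8, 18.2 and 19.1 with metformin and 20.3, 23.6 and 22.2 with imeglimin. Every treated library lay below every control, at -0.94 ± 0.10 with metformin (edgeR adjusted p = 0.000456) and -0.73 ± 0.10 with imeglimin (adjusted p = 0.00392), and both calls held without any 1 library. Mylip measured 55.04, 41.1 and 48.05 CPM in controls, 30.1, 26.9 and 39.8 with metformin and 27.97, 29.6 and 27.04 with imeglimin. It too fell below all controls, with -0.58 ± 0.15 for metformin (adjusted p = 0.0217, lost without any 1 of 4 libraries, control 3 among them) and -0.77 ± 0.15 for imeglimin (adjusted p = 0.0105). Soat2 measured 0.87, 1.15 and 0.843 CPM in controls, 2.46, 3.98 and 3.22 with metformin and 1.74, 1.06 and 2.40 with imeglimin, from 37 to 165 reads. It rose with metformin (1.76 ± 0.32, adjusted p = 0.00541, held without any 1 library), while imeglimin 2 lay among the controls and imeglimin was not called (0.86 ± 0.32, adjusted p = 0.112).

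Npc1l1 reached very low levels in chronic colon, with 6, 4 and 6 reads in controls, 25, 20 and 87 with metformin and 27, 42 and 28 with imeglimin. In CPM this was 0.137, 0.115 and 0.137 CPM in controls, 0.706, 0.483 and 2.08 with metformin and 0.735, 0.993 and 0.651 with imeglimin. All treated libraries exceeded all controls (3.04 ± 0.59 with metformin, edgeR adjusted p = 0.00666; 2.58 ± 0.59 with imeglimin, adjusted p = 0.0213, lost without any 1 of 4 libraries), at levels far below those of small intestine. Abcg5 measured 9.87, 2.25 and 6.86 CPM in controls, 12.96, 27.8 and 20.7 with metformin and 13.9, 6.24 and 54.4 with imeglimin. Imeglimin 3 stood far above the other imeglimin libraries, and neither drug was called (1.69 ± 0.73 and 1.96 ± 0.73, adjusted p = 0.132 and 0.11). Abcg8 measured 5.22, 1.30 and 3.08 CPM in controls, 4.83, 8.91 and 8.62 with metformin and 3.70, 1.68 and 14.6 with imeglimin, with the same library highest and no call (adjusted p = 0.252 and 0.37).

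Markers of other cells moved in the same table. Of 7 small intestinal enterocyte markers, 1 was higher with metformin (Rbp2) and 0 with imeglimin (medians 2.36 and 0.43), and their summed level was 49.98, 111 and 61.4 CPM in controls, 149, 105 and 174 with metformin and 158, 211 and 76.7 with imeglimin. Between 0 and 1 of the 7 had no reads in a library. The 28 proliferation markers summed to 302, 474 and 294 CPM in controls, 416, 544 and 426 with metformin and 593, 812 and 679.6 with imeglimin. All 3 imeglimin libraries were above every control for this sum, 12 of 28 markers were higher with imeglimin (median 0.91) and 5 with metformin (median 0.26), and none had 0 reads. With metformin, 11 of 15 smooth muscle and 9 of 12 fibroblast markers were lower and 4 of 8 general epithelial markers higher, against 0, 3 and 1 with imeglimin. Smooth muscle sums were 6703, 6978 and 6743 CPM in controls, 5263, 4661 and 4962 with metformin and 5099, 6932 and 6163 with imeglimin. Whether cell makeup differed, and whether it enters the changes of the cholesterol genes, was not tested.

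**Figure D3:**
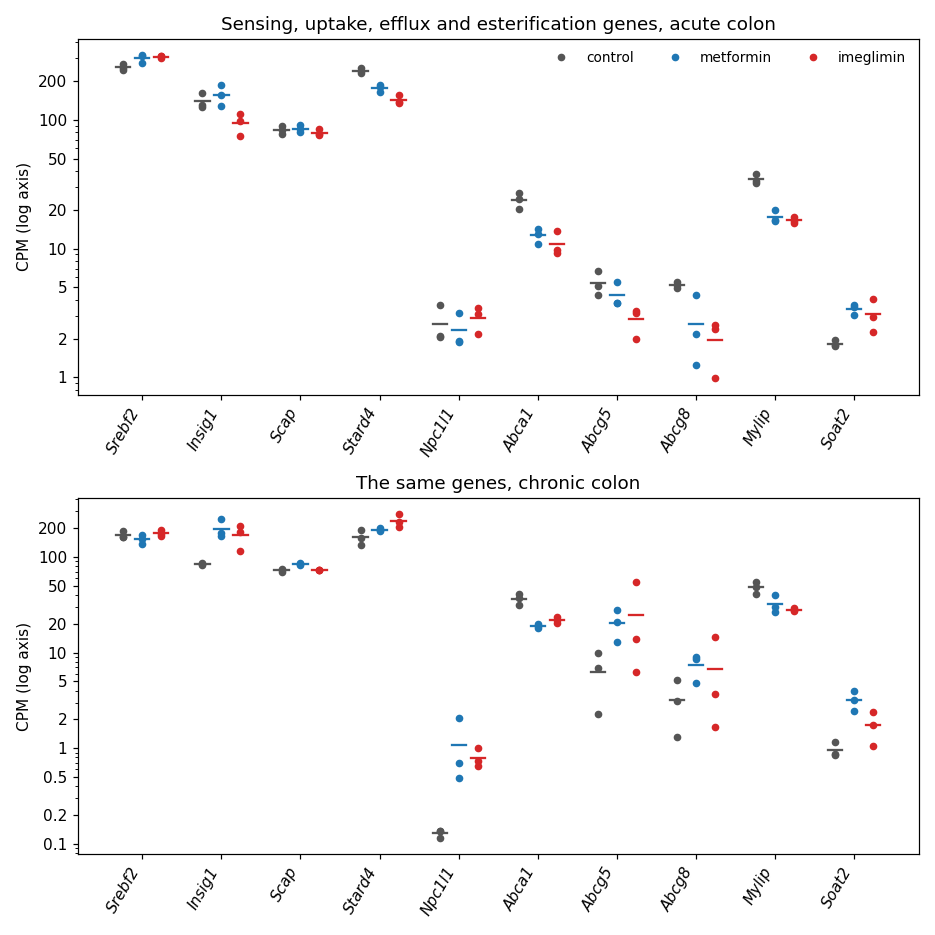
Levels of the 10 sensing, uptake, efflux and esterification genes in acute (top) and chronic colon (bottom), in CPM on a log axis, with points for the 3 libraries of each group and dashes for their means. Abca1 and Mylip are below all controls in every treated library of both panels, while Insig1 and Npc1l1 are above all controls with both drugs in the chronic panel.

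Set against each other at the same concentration in drinking water, the drugs gave 0 of 28 members called in chronic colon by edgeR (15 at an unadjusted p under 0.05, and 5 higher and 2 lower with imeglimin by DESeq2), where 0.611% of all genes were called. Of the synthesis enzymes 16 of 18 were above 0, with a median of 0.51. Hmgcs1 was 0.86 ± 0.20 higher with imeglimin (95% interval 0.41 to 1.31, edgeR adjusted p = 0.0803), Hsd17b7 0.74 ± 0.16 (0.39 to 1.09, adjusted p = 0.0673) and Fdft1 0.70 ± 0.17 (0.32 to 1.08, adjusted p = 0.0874). Ebp went the other way, at -0.33 ± 0.08 (-0.51 to -0.15, adjusted p = 0.0904), as did Soat2, at -0.89 ± 0.31 (-1.59 to -0.20, adjusted p = 0.169). Without imeglimin 1, the lowest imeglimin library for these enzymes, Hmgcs1 and Fdft1 passed (adjusted p = 0.0380 and 0.0166), and without imeglimin 3, Ebp passed (adjusted p = 0.0408). Intake per animal was not analysed here, so equal concentration need not mean equal exposure.

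In the small intestine few members changed. In proximal small intestine, 1 member was higher and 1 lower with metformin (background 1.65% and 2.46%, 4.11% in all), 1 was higher and 0 lower with imeglimin (0.393% and 0.763%, 1.16% in all), and 1 differed between the drugs (1.09% in either direction, 0.659% higher with imeglimin). Stard4 measured 182, 222 and 207 CPM in controls, 270.4, 266 and 251 with metformin and 245, 256 and 243 with imeglimin. Both treated groups lay above the controls, and metformin was called (0.37 ± 0.08, edgeR adjusted p = 0.0282) but imeglimin was not (0.28 ± 0.08, adjusted p = 0.0961). DESeq2 called Stard4 with imeglimin too (0.29, adjusted p = 0.0181). Abca1 measured 145, 159 and 150.3 CPM in controls, 108, 112 and 107 with metformin and 103, 145 and 146 with imeglimin. Metformin libraries lay below all controls (-0.48 ± 0.11, adjusted p = 0.0406), while imeglimin 1 alone among the imeglimin libraries stood far below the rest (-0.20 ± 0.11, adjusted p = 0.39). Mylip measured 13.3, 16.5 and 15.6 CPM in controls, 14.5, 13.2 and 14.5 with metformin and 20.1, 25.6 and 29.5 with imeglimin. It rose with imeglimin (0.73 ± 0.14, adjusted p = 0.0386), also against metformin (0.83 ± 0.14, adjusted p = 0.0217), opposite to its fall in colon. In the same libraries, smooth muscle markers summed to 1928, 1599 and 1869 CPM in controls, 976, 1334 and 1054 with metformin and 2097, 1797 and 2093 with imeglimin, and Paneth markers to 3639, 3009 and 5323 CPM in controls, 1549, 1723 and 1951 with metformin and 2174, 3175 and 2529 with imeglimin. Plasma and B cell markers summed to 1204, 1295 and 1119.6 CPM in controls, 738, 799 and 819.8 with metformin and 834, 883 and 1152 with imeglimin, and T and NK cell markers to 275, 322 and 260.2 CPM in controls, 174, 221 and 166 with metformin and 298, 248 and 239.7 with imeglimin. All metformin libraries lay below all controls for these 4 sums, with 11 of 15 smooth muscle, 6 of 6 Paneth, 2 of 10 B and plasma and 5 of 12 T and NK cell markers lower. Their part in the metformin results was not tested. Each of the 4 member calls was lost when any 1 of at least 5 of the 6 libraries was left out, with adjusted p up to 0.146.

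The absorptive genes were not called in proximal small intestine by edgeR, while DESeq2 called Abcg5 with metformin (0.33, adjusted p = 0.00764) and between the drugs (-0.34, adjusted p = 0.00869). Npc1l1 measured 1081, 1111 and 1273 CPM in controls, 1201, 1072 and 1065 with metformin and 975, 1122 and 981 with imeglimin. Abcg5 measured 309.6, 327 and 327 CPM in controls, 411, 366 and 425 with metformin and 282, 318 and 351 with imeglimin. Metformin libraries were above all controls for Abcg5, without an edgeR call (0.32 ± 0.09, adjusted p = 0.0652). Abcg8 measured 254, 216 and 252 CPM in controls, 282, 248 and 263 with metformin and 212, 234 and 266 with imeglimin. Soat2 measured 279, 272 and 281 CPM in controls, 268, 256 and 229 with metformin and 272, 268 and 243 with imeglimin. For Npc1l1, Abcg8 and Soat2 no difference was called in proximal small intestine, and the 95% interval of Npc1l1 with imeglimin ran from -0.37 to 0.03. Insig1 measured 35.1, 38.4 and 34.02 CPM in controls, 52.1, 35.4 and 40.4 with metformin and 38.6, 42.9 and 42.3 with imeglimin. Srebf2 measured 75.2, 72.3 and 84.7 CPM in controls, 83.9, 81.6 and 81.5 with metformin and 81.9, 71.2 and 74.2 with imeglimin. Neither was called (adjusted p = 0.269 and 0.434 for Insig1, 0.558 and 0.893 for Srebf2), and the synthesis medians were 0.08 with metformin and 0.13 with imeglimin.

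In middle small intestine, 0 members were called by edgeR with metformin, with imeglimin or between the drugs (4, 6 and 5 at an unadjusted p under 0.05, and 0, 1 and 1 by DESeq2), where 0.34%, 0.0279% and 0% of all genes were called. Of all genes 0.0502% were lower with metformin, and 0.0167% were higher and 0.0111% lower with imeglimin. Npc1l1 measured 977, 1148 and 1451 CPM in controls, 1087, 805 and 929 with metformin and 881, 1071 and 1205 with imeglimin. Abcg5 measured 236, 259.6 and 323 CPM in controls, 331, 390.3 and 344 with metformin and 261, 306 and 304 with imeglimin. Npc1l1 groups overlapped, while the metformin libraries stood above the controls for Abcg5 (0.38 ± 0.13, edgeR adjusted p = 0.297). Abcg8 measured 177, 174 and 208 CPM in controls, 226, 225 and 194 with metformin and 162, 187 and 215 with imeglimin. Soat2 measured 229, 245 and 263 CPM in controls, 228, 227 and 161 with metformin and 215, 236 and 252 with imeglimin. Abca1 measured 120.3, 122 and 165 CPM in controls, 108, 108 and 137 with metformin and 138, 176 and 141 with imeglimin. None of these 3 was called against control. Insig1 measured 30.3, 23.9 and 22.5 CPM in controls, 33.1, 28.8 and 39.7 with metformin and 25.97, 31.9 and 32.5 with imeglimin. Srebf2 measured 149, 118 and 109.7 CPM in controls, 121, 113 and 116 with metformin and 96.5, 105 and 113 with imeglimin. The Srebf2 difference with imeglimin, -0.26 ± 0.12, did not pass (adjusted p = 0.275).

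In distal small intestine, where synthesis levels were highest, 0 members were called in any of the 3 comparisons by edgeR (3, 7 and 8 at an unadjusted p under 0.05, and 0, 2 and 1 by DESeq2), where 0.625%, 0.0219% and 0.0494% of all genes were called. Synthesis medians were -0.01 with metformin and -0.35 with imeglimin, and 3 of 18 enzymes were above 0 with imeglimin. The summed level of the 18 was 1752, 2289 and 1803 CPM in controls, 1536, 1914 and 2319 with metformin and 1711, 1482 and 1591 with imeglimin, with every imeglimin library below every control. Npc1l1 measured 256, 757 and 754 CPM in controls, 443, 432 and 509 with metformin and 717, 440.2 and 596 with imeglimin. Abcg5 measured 103, 178 and 197 CPM in controls, 229.5, 281 and 276 with metformin and 241, 161 and 232 with imeglimin. Distal control 1 was the lowest library for both. Abcg8 measured 74.4, 139.6 and 156 CPM in controls, 175, 251 and 201 with metformin and 175, 113 and 169 with imeglimin. Soat2 measured 81.9, 134 and 96.6 CPM in controls, 111, 123 and 137 with metformin and 127, 84.9 and 109 with imeglimin. Abca1 measured 30.3, 27.9 and 51.8 CPM in controls, 52.5, 42.3 and 24.4 with metformin and 24.01, 66.7 and 32.1 with imeglimin. Metformin libraries lay above all controls for both Abcg5 and Abcg8, and neither was called (for Abcg8 0.76 ± 0.28, edgeR adjusted p = 0.248). Abca1 groups overlapped, and its interval with imeglimin ran from -0.81 to 1.13. Insig1 measured 67.02, 74.1 and 56.8 CPM in controls, 59.6, 61.9 and 92.3 with metformin and 64.6, 73.8 and 65.8 with imeglimin. Srebf2 measured 215, 264 and 258 CPM in controls, 221, 219.7 and 265 with metformin and 219, 230.0 and 207 with imeglimin. Mylip measured 16.9, 19.3 and 37.3 CPM in controls, 50.7, 31.2 and 32.4 with metformin and 42.1, 69.4 and 49.4 with imeglimin. All imeglimin libraries were above the controls for Mylip, at 1.13 ± 0.34 (edgeR adjusted p = 0.351).

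**Figure D4:**
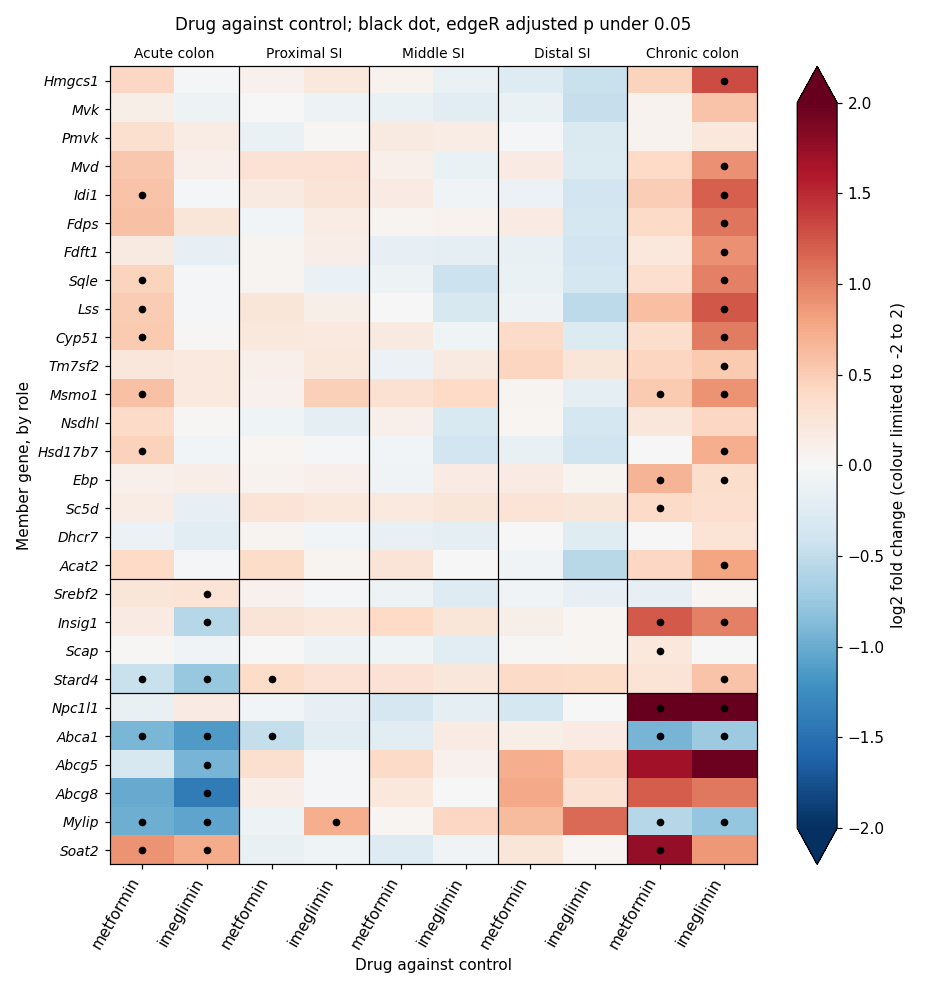
log2 fold change of each drug against control for the 28 members (rows, by role) in the 5 tissue tables (columns), coloured from blue (lower) to red (higher) and limited to values from -2 to 2. Black dots mark an edgeR adjusted p under 0.05; the dots lie mainly in the 4 colon columns, with 13 synthesis enzymes marked for chronic imeglimin and 6 for acute metformin.

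Whether a drug's effect differed between chronic and acute colon was tested as an interaction over the 18 colon libraries. For imeglimin, 14 members had a higher fold change after 4 weeks than at 6 h and 0 a lower one, against 8.72% and 7.56% of all genes. The median difference over the 28 was 0.82, against 0.04 over all genes. Stard4 differed most firmly, by 1.35 ± 0.17 (edgeR adjusted p = 0.00014), having fallen at 6 h and risen after 4 weeks, and Insig1 did the same with 1.60 ± 0.30 (adjusted p = 0.00211). The other 12 were each lost without at least 1 replicate number, and the count was 3 without replicate 3. Stard4 and Insig1 stayed called without replicate 1, without replicate 2 and without replicate 3. Of the synthesis enzymes 10 were called, led by Hmgcs1 at 1.38 ± 0.27 (adjusted p = 0.00266, 0.0668 without replicate 3), Fdft1 at 1.10 ± 0.23 (adjusted p = 0.00458) and Sqle at 1.07 ± 0.24 (adjusted p = 0.00692). For Abca1 and Mylip the difference was not called, at 0.42 ± 0.21 (95% interval -0.02 to 0.87, adjusted p = 0.189) and 0.31 ± 0.19 (-0.10 to 0.72, adjusted p = 0.298). Without replicate 1, Abca1 passed (0.76, adjusted p = 0.0434).

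For metformin, 4 members differed between chronic and acute colon, all higher after 4 weeks, against 3.9% of genes called higher and 2.32% lower (6.22% in all). They were Npc1l1 (3.22 ± 0.67, edgeR adjusted p = 0.00999), Stard4 (0.75 ± 0.17, adjusted p = 0.0154), Ebp (0.61 ± 0.14, adjusted p = 0.0154) and Insig1 (1.09 ± 0.30, adjusted p = 0.037, 0.0581 with the replicate block). Each of the 4 was lost without at least 2 of the 3 replicate numbers. The synthesis median was -0.03, with 1 of 18 called, and Hmgcs1 stood at 0.05 ± 0.27 (95% interval -0.51 to 0.62). Npc1l1 controls also differed between the experiments, with 127, 69 and 85 reads in acute and 6, 4 and 6 in chronic colon. Route, dose, duration and table differ together between the experiments and cannot be told apart, and the marker sums of the control colons differed as well.

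**Figure D5:**
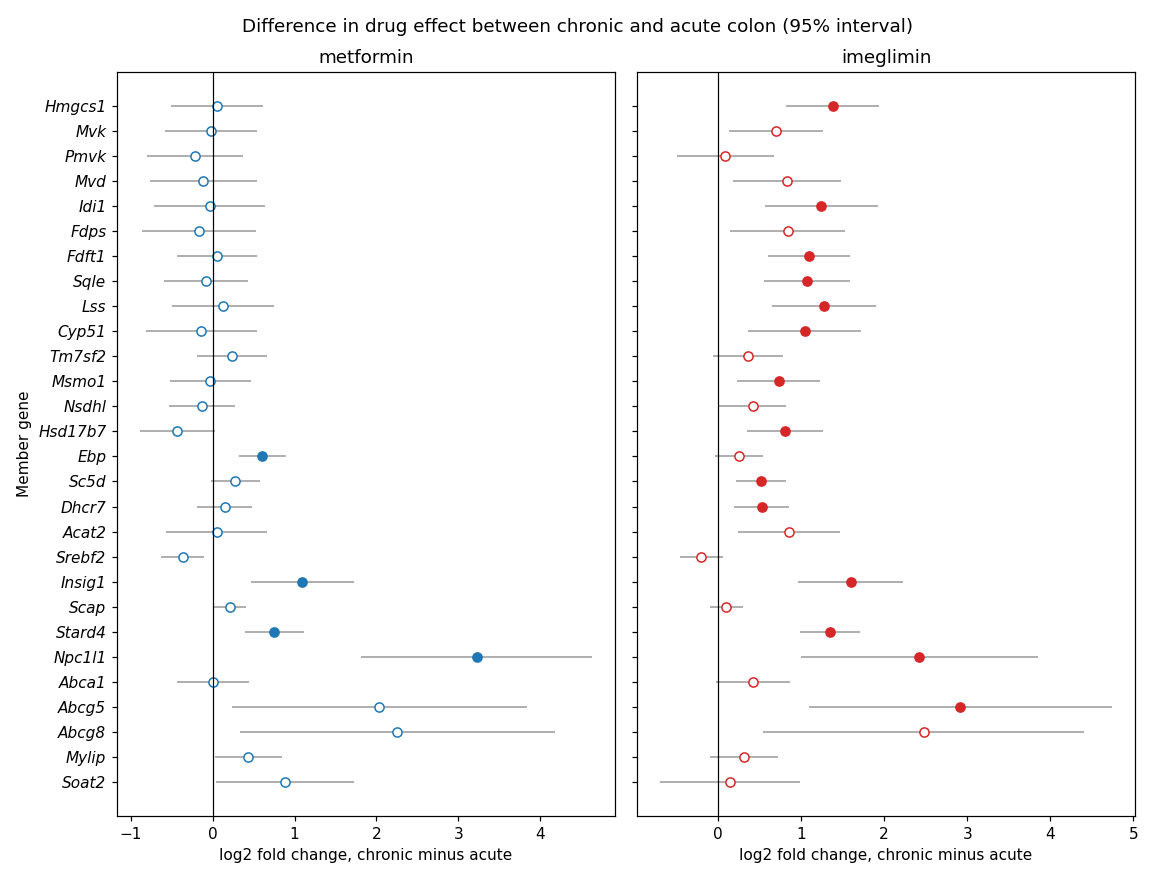
Difference in log2 fold change against control between chronic and acute colon for each member, for metformin (left) and imeglimin (right), with 95% intervals from the edgeR fit. Filled circles mark an adjusted p under 0.05 (4 with metformin, 14 with imeglimin); for imeglimin the points lie right of 0 for all members except Srebf2.

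Across the 4 chronic segments, 13 members had imeglimin effects that differed (edgeR F test over 3 contrasts), against 2.96% of all genes, and 4 had metformin effects that differed, against 4.03%. The imeglimin set held 12 synthesis enzymes and Mylip. Lss was 0.12 proximally, -0.31 in the middle, -0.50 distally and 1.25 in colon (adjusted p = 0.000716), and Hmgcs1 was 0.21 proximally, -0.12 in the middle, -0.42 distally and 1.32 in colon (adjusted p = 0.000925). Mylip ran opposite to them, at 0.73 proximally, 0.43 in the middle, 1.15 distally and -0.76 in colon (adjusted p = 0.0109). For metformin, Soat2 was -0.12 proximally, -0.25 in the middle, 0.26 distally and 1.77 in colon (adjusted p = 0.000821), followed by Ebp, Npc1l1 and Insig1, each with its highest fold change in colon. None of these segment differences held without every replicate number: the imeglimin count was 3 without replicate 1 and 0 without replicate 2 or 3, and the metformin count was 0 to 2.

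Other genes of the pathway, 29 listed for comparison, moved less uniformly. In acute colon 3 were higher and 6 lower with metformin, where 11.3% and 8.37% of all genes were called higher and lower. With imeglimin 4 were higher and 8 lower, where 18.1% and 15.1% of all genes were. The medians were -0.06 with metformin and -0.10 with imeglimin. Gramd1b, which moves cholesterol from the plasma membrane to the endoplasmic reticulum, fell with metformin (-0.80 ± 0.13, edgeR adjusted p = 0.0023) and was higher with imeglimin than with metformin (0.94 ± 0.13, adjusted p = 0.0237). Lipa, lysosomal acid lipase, rose with metformin (0.71 ± 0.12, adjusted p = 0.00253), and Apob, the lipoprotein scaffold, fell with imeglimin (-0.85 ± 0.15, adjusted p = 0.00184). In chronic colon 5 were higher and 2 lower with metformin, where 11.6% and 8.04% of all genes were. With imeglimin 3 were higher and 4 lower there, where 7.97% and 5.07% of all genes were. Npc2, a lysosomal sterol carrier, rose with metformin (0.47 ± 0.07, adjusted p = 0.00228) while its partner Npc1 fell (-0.54 ± 0.09, adjusted p = 0.00272). Abcg1, a liver X receptor target like Abca1, fell with imeglimin (-1.34 ± 0.26, adjusted p = 0.0117), and Apob rose (1.05 ± 0.20, adjusted p = 0.0106). Proximal small intestine had 1 called, Lipa, higher with metformin (0.46 ± 0.12, edgeR adjusted p = 0.048), where 1.65% of all genes were higher. The middle and distal segments had 0 called by edgeR.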

How the data were processed

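The values are whole-number read counts per gene, deposited by the authors as 5 tables of 9 libraries each. Per the submitters' processing notes, FastQC, Trimmomatic, HISAT2 and StringTie were used, with builds mm10 and GRCm39 named without a role. The strand setting of the counting was not given in the sources used here. RNA was made into stranded mRNA libraries, per the labels' protocols. Single-cell matrices were not used here, and 0 columns of the tables were left out.

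Each table was fitted in R 4.3.3 with edgeR 4.0.16 (TMM, filterByExpr, quasi-likelihood F test, all 9 libraries), with Benjamini-Hochberg adjustment over the 17295 to 18665 genes tested. Joint fits, joined by symbol, used 36 chronic libraries (20053 genes) and 18 colon libraries (19369 genes). The SE is the absolute log2 fold change divided by the root of F. edgeR ran on limma 3.58.1, and DESeq2 1.42.0 was an alternative, beside RLE scaling, no filter beyond 1 read, the replicate block, only the 2 groups compared and each library left out. The code was tested on simulated data.

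Replicates of a group differed by more than counting noise in every pair (chi-square per gene from 12.4 to 177.5). Library totals ran from 31606797 to 47324301 counts. Beside the replicate number in the title, the labels carry a separate batch tag with the same number, and libraries were paired across groups by that tag. The mean correlation of deviations between same-numbered libraries was -0.00563 in acute colon, 0.00548, -0.100 and -0.132 in proximal, middle and distal small intestine and 0.0687 in chronic colon, and 1, 0, 2, 3 and 3 of 9 pairs in that order exceeded 0.1.

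The members, gene lists and tests were chosen with earlier results of these data known. Named with statistics were up to 8 called synthesis enzymes and every called sensing and uptake or efflux member per comparison. Values per library are given for the called member with the smallest adjusted p per role and for Npc1l1, Abca1, Abcg5, Abcg8, Soat2, Insig1 and Srebf2. Of the other pathway genes up to 3 were named.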

Additional observations from a re-analysis of the deposited data

Results flagged for a closer look

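A drug effect that differed between experiments or between gut segments, by edgeR's test of the difference itself, was found for the genes below, with Benjamini-Hochberg adjusted p over all genes in parentheses. Between chronic and acute colon, the metformin effect differed for Npc1l1 (0.00999), Stard4 (0.0154), Ebp (0.0154) and Insig1 (0.037). The imeglimin effect differed there for Stard4 (0.00014), Insig1 (0.00211), Hmgcs1 (0.00266), Fdft1 (0.00458), Sqle (0.00692), Lss (0.00786), Idi1 (0.015), Hsd17b7 (0.0183), Sc5d (0.0208), Npc1l1 (0.0213), Abcg5 (0.0295), Dhcr7 (0.0331), Cyp51 (0.0359) and Msmo1 (0.0434). All of these differences were positive, meaning a higher fold change after 4 weeks than at 6 h.

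Across the 4 chronic segments, the metformin effect differed for Soat2 (0.000821), Ebp (0.00697), Npc1l1 (0.0125) and Insig1 (0.0404). The imeglimin effect differed for Lss (0.000716), Hmgcs1 (0.000925), Hsd17b7 (0.00482), Fdft1 (0.00699), Acat2 (0.00838), Idi1 (0.00899), Mylip (0.0109), Sqle (0.0163), Fdps (0.0228), Nsdhl (0.0293), Mvd (0.0343), Cyp51 (0.0348) and Mvk (0.0359). For Nsdhl the imeglimin fold changes were -0.20 proximally, -0.30 in the middle, -0.33 distally and 0.43 in colon, and for Acat2 they were 0.05 proximally, 0.00 in the middle, -0.53 distally and 0.80 in colon. Npc1l1 with metformin was -0.03 proximally, -0.34 in the middle, -0.34 distally and 3.04 in colon, from few reads in colon. Drugs shared their controls within each table, so the lists for metformin and imeglimin are not independent.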

How the results depend on the processing

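Of 1067 values for the 137 member calls under the alternatives, 836 kept direction and call, 231 kept direction and lost the call, and 0 reversed. RLE scaling lost 0 calls and keeping every gene with 1 read lost 9. With the replicate block (paired by batch number) 4 calls were lost: Soat2 (0.0544) and Srebf2 (0.0585) with acute imeglimin, Scap with chronic metformin in colon (0.0594) and the chronic against acute metformin difference of Insig1 (0.0581). The block changed no other member call. With only the 2 groups compared 4 were lost: Hsd17b7 with acute metformin (0.062), Mylip with imeglimin in proximal small intestine (0.0846, leaving 0 called there), and Tm7sf2 (0.0777) and Stard4 (0.0501) with chronic imeglimin in colon. The cause was not tested.

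DESeq2 called 7 members between the drugs in acute colon and 7 in chronic colon. It called 4 with metformin, 3 with imeglimin and 2 between the drugs in proximal, 1 with imeglimin and 1 between the drugs in middle, and 2 with imeglimin and 1 between the drugs in distal small intestine. Against control it called 15 with metformin in acute colon (Hmgcs1, Mvd, Fdps, Nsdhl and Srebf2 added). In chronic colon it called 11 with metformin (Lss and Tm7sf2 added) and 22 with imeglimin (Mvk, Nsdhl, Sc5d and Dhcr7 added).

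Leaving out 1 library gave 3 (without control 3) to 14 (without metformin 2) members with metformin, 3 (without control 1) to 8 with imeglimin and 0 to 2 between the drugs in acute colon. In chronic colon the ranges were 5 (without control 1) to 10 (without control 2), 7 (without control 3) to 19 (without control 2 or imeglimin 1) and 0 to 2. In proximal small intestine they were 0 to 1, 0 to 1 and 0 to 2 (without imeglimin 1, when Abca1 passed between the drugs), and in the middle and distal segments 0 to 0. Leaving out a replicate number gave 0 to 2 for metformin and 3 (without replicate 3) to 11 for imeglimin between chronic and acute colon, and 0 to 2 and 0 to 3 across segments. For untreated segments it gave 1 to 4, 19 to 20 and 23 to 24, in order from proximal to colon. With 1 library fewer, a smaller sample is tested, and genes at a few reads, such as Npc1l1 in colon, are limited by depth.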
